A study of Homo sapiens with 6 samples.

Results

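The genes described here are 6 interferon-inducible antiviral restriction factors, IFITM1, IFITM2, IFITM3, BST2, LY6E and ISG20. They were chosen by gene symbol, and all 6 were found among the 19755 genes of the deposited protein-coding gene table. RNA-seq had been run on 3 libraries of cells given lipopolysaccharide (LPS, a glycolipid of the Gram-negative cell wall) at 1000 ng/ml for 12 h and on 3 control libraries taken at the same 12 h. Sample titles carry the name EA.hy926 together with that of human umbilical vein endothelium. EA.hy926 is a line made by fusing an umbilical vein endothelial cell with the lung carcinoma line A549, so it is 1 established hybrid line rather than primary endothelium. Beyond the LPS, the labels record no other difference between the groups, and they do not say whether controls received a vehicle. Whether the 3 replicates of a group were grown separately is not recorded, so the spread behind each p-value is that of the libraries and could be purely technical. The design asks how the transcripts of LPS-treated cells differ from those of untreated ones.

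Restriction factors are host proteins that block a step of a virus's life cycle, and many are switched on by interferon. Type I interferon binds a receptor at the cell surface, and its signal reaches promoters that carry interferon-stimulated response elements (ISREs). In endothelium, LPS acts through TLR4, whose TRIF branch activates IRF3 and can lead to interferon-beta. The IFITM proteins are small membrane proteins that hinder fusion of viral with cellular membranes, IFITM1 mostly at the cell surface and IFITM2 and IFITM3 mostly in endosomes and lysosomes. BST2, also called tetherin, holds budding virions at the cell surface. LY6E is a small protein held in the outer membrane leaflet by a glycosylphosphatidylinositol (GPI) anchor, and it restricts entry of coronaviruses but favours some other viruses. ISG20 is a 3′ to 5′ exonuclease that acts on single-stranded RNA, so it is not a membrane protein.

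Promoter sequences from RefSeq (GRCh38.p14) were matched by symbol and are shown for 4 of the 6 members, with a response element marked. No sequence was matched for IFITM2. LY6E was left out of the search, so whether its promoter holds the element is not given here. Each line holds the 250 bases before the listed start of the leading transcript of the gene, 5′ to 3′ on its own strand. Capitals mark matches to the ISRE core, which is GAAA, then any 2 bases, then GAAA.
IFITM1: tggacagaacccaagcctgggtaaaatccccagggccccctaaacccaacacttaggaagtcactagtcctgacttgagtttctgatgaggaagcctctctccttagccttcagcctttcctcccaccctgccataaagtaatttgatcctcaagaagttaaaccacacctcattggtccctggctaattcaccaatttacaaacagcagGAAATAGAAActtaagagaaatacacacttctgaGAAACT
IFITM3: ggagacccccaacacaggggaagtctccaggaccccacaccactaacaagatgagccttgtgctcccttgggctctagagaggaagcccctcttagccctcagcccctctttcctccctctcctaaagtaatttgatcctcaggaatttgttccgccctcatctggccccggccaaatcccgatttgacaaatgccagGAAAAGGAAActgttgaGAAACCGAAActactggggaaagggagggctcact
BST2: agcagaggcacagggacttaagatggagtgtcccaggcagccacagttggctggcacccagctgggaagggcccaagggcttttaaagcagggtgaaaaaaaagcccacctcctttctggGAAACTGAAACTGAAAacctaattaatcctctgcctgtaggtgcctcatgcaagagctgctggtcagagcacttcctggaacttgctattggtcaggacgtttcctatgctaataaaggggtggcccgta
ISG20: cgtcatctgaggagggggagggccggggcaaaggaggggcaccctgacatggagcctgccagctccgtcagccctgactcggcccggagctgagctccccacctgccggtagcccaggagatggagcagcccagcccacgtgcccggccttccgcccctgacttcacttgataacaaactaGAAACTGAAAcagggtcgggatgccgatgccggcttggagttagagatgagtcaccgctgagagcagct
The windows lie at chr11:313790-314039 on the plus strand (IFITM1), chr11:320861-321110 on the minus strand (IFITM3), chr19:17405631-17405880 on the minus strand (BST2) and chr15:88638766-88639015 on the plus strand (ISG20). Each ends on the base before the start that the deposited tables list for the leading transcript of that gene. The listed gene starts of ISG20 and IFITM3 lie further upstream, at 88636153 and 327537. The transcript ISG20-208 begins at 88638953, inside the ISG20 window.

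Each of these 4 promoters held the ISRE core on the strand of its gene, in a window of 300 bases that also takes in 50 bases of the transcript. IFITM1 had 1 match from 40 to 31 bases before the start and another that began 6 bases before it and ran 4 bases into the transcript. IFITM3 had its 2 matches from 52 to 43 and from 35 to 26 bases before the start. BST2 had a pair of overlapping matches, from 130 to 121 and from 124 to 115 bases before the start. ISG20 had 1 match, from 69 to 60 bases before the start. Over both strands, 3.57% of 35116 promoters of the same length held the core. The interferon-gamma activated site TTCNNNGAA, searched on both strands, was found in 7.66% of promoters. It occurred in IFITM1 (12 to 4 bases before the start, overlapping an ISRE core) and BST2 (136 to 128, overlapping an ISRE core, and 58 to 50). The IFITM1 and IFITM3 windows matched at 76.3% of 232 aligned bases. A match describes letters only and is not evidence that a factor was bound.

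On GRCh38 the IFITM genes form a cluster on chromosome 11, with IFITM2 at 307631 to 315272 and IFITM3 at 319676 to 327537, as the deposited tables give them. The deposited IFITM1 interval, 307631 to 320869, is wider than the 313506 to 315272 of GENCODE 29. It was widened by assembled transcripts, meaning models with no Ensembl identifier, that run from the start of IFITM2 across IFITM1 and over the body of IFITM3. BST2 lies at 17402939 to 17405630 on chromosome 19, LY6E at 143009121 to 143023832 on chromosome 8 and ISG20 at 88636153 to 88656483 on chromosome 15. IFITM2 is overlapped by the antisense gene AC136475.2, IFITM3 by AC136475.1 and other noncoding genes, and LY6E by the divergent transcript gene LY6E-DT. No source used here gives the counting strand, and reads from such partners cannot be told apart. The antisense AC136475.2 stood at 3.99, 4.61 and 4.01 FPKM in the LPS libraries and at 3.60, 2.36 and 4.75 FPKM in the controls.

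**Figure D1:**
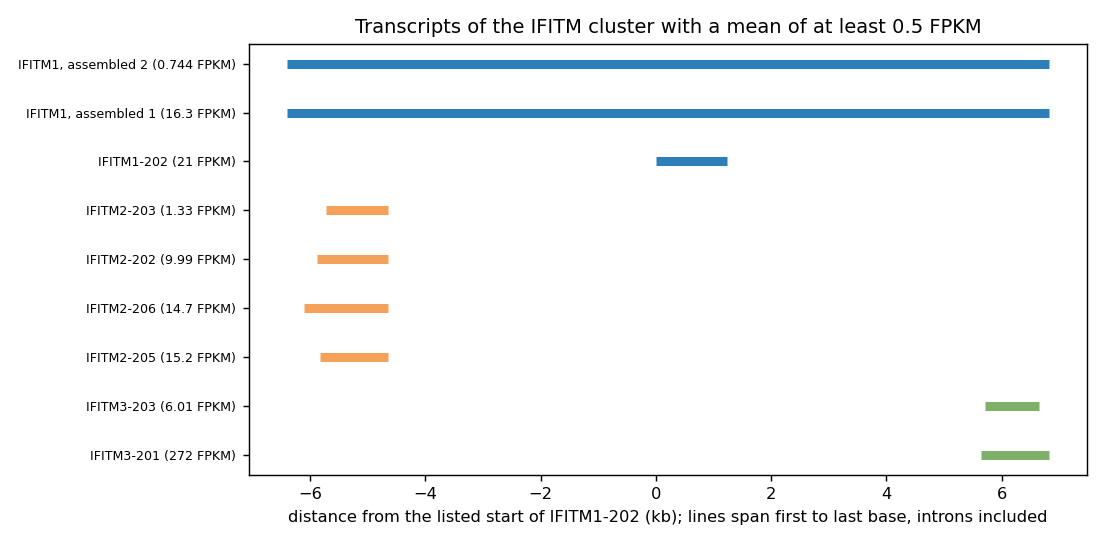
Position of the IFITM transcripts whose mean level reached 0.5 FPKM, as distance in kb from the listed start of IFITM1-202. Each line spans the first to the last base, introns included, and the mean level in FPKM stands beside each name; the assembled IFITM1 transcripts cover the whole cluster.

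IFITM transcripts also share sequence, which limits how well reads can be divided between them. Of the 100-base stretches of IFITM1-202, the leading IFITM1 transcript, 37.7% occurred exactly in a transcript of another gene in GENCODE 29, mostly IFITM2. That share was 5.92% for IFITM3-201 and 0% for IFITM2-205. So the match of IFITM1-202 at this length was to other IFITM2 transcripts, and which ones was not resolved. IFITM2-205 was the highest IFITM2 transcript in the third library of each group only. The share was not computed for IFITM2-206 or IFITM2-202, so 0% does not describe IFITM2 in the other libraries. IFITM2-201 runs to base 315272, where IFITM1-202 also ends. It averaged 0.192 FPKM with LPS and 0.0337 FPKM in controls. With 50-base stretches the shares were 42.3% for IFITM1-202, 20.3% for IFITM3-201 and 17.3% for IFITM2-205. BST2-201, LY6E-210 and ISG20-201 shared no stretch of either length with another gene. No source used here gives the read length, and the split of reads among the IFITM genes is uncertain to that extent.

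FPKM scales fragments to transcript length and to the mapped total, so levels of different genes can be compared. It carries no absolute depth, and no confidence interval from counts can be given. Over protein-coding genes FPKM added up to between 256257 and 264878 in LPS libraries and between 256047 and 260730 in controls. The endothelial markers were expressed, with 14 of 14 tested and a summed level of 517 to 661 FPKM in LPS libraries and 433 to 563 FPKM in controls. Epithelial and A549 markers summed to 99.6 to 122 FPKM with LPS and 136 to 148 FPKM in controls. The keratin genes KRT7, KRT8, KRT18 and KRT19 carried most of that sum, and only 6 of the 16 markers reached the level for testing. EPCAM and CDH1 were near 0 in every library, and SFTPC and NKX2-1 were listed at 0 throughout. The fibroblast and smooth muscle list summed to 3537 to 3954 FPKM with LPS and 3565 to 4008 FPKM in controls. The collagen genes COL1A1, COL1A2 and COL3A1 carried most of that sum. Of the muscle genes, MYH11 and DES were too low to be tested, whereas ACTA2 and CNN1 were tested. ACTA2 stood at 144, 127 and 73.8 FPKM with LPS and at 144, 156 and 110 FPKM in controls. Of 16 leukocyte markers 8 were listed at 0 in every library, PTPRC among them, and the list summed to 12.9 to 18.6 FPKM with LPS and 9.27 to 15.0 FPKM in controls. The endothelial sums overlapped between groups, whereas every LPS library had a lower epithelial sum than every control. Limma called 0 of 14 tested endothelial and 0 of 6 tested epithelial markers. An unadjusted p under 0.05 was reached by 6 and 4 of them, against 10.4% of all tested genes. Of the endothelial markers 12 of 14 had a positive log2 change (median 0.24), with 4 higher and 2 lower at that p. Of the epithelial markers 1 of 6 had a positive change (median −0.42), and the 4 at that p were all lower. Over all tested genes 47.8% had a positive log2 change. The part of these cell markers in the results below was not tested.

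Among the members, BST2 and ISG20 differed most clearly between the groups, each at more than 2 times its control mean with LPS and with no overlap between groups. IFITM1 was higher in LPS library 1 but overlapped the controls at gene level. IFITM2, IFITM3 and LY6E overlapped as well. None of these differences passed a test adjusted over all genes. Differences were tested with limma on log2(FPKM + 0.5), fitted to all 12068 genes with a mean of at least 0.5 FPKM, with Benjamini-Hochberg adjustment. An adjusted p under 0.05 was the threshold, and log2 changes below are on this scale, which understates changes of low genes. By limma 0 of the 6 members were called, against 0.058% of all tested genes (7 genes, with 0.0414% called as higher). An unadjusted p under 0.05 was reached by 2 of the 6, both higher with LPS, against 10.4% of genes in either direction and 5.13% in that direction. All 3 LPS libraries lay above all 3 controls for 2 members, against 8.68% of tested genes. Of the 6 log2 changes 5 were positive, against 47.8% of all tested genes. The 6 members had a median log2 change of 0.62, where the median over all tested genes was −0.0111. The member median was 0.20 without control 1, a library in which IFITM2 was nearly absent. In bulk libraries fewer cells of a type and less RNA per cell cannot be told apart.

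**Figure D2:**
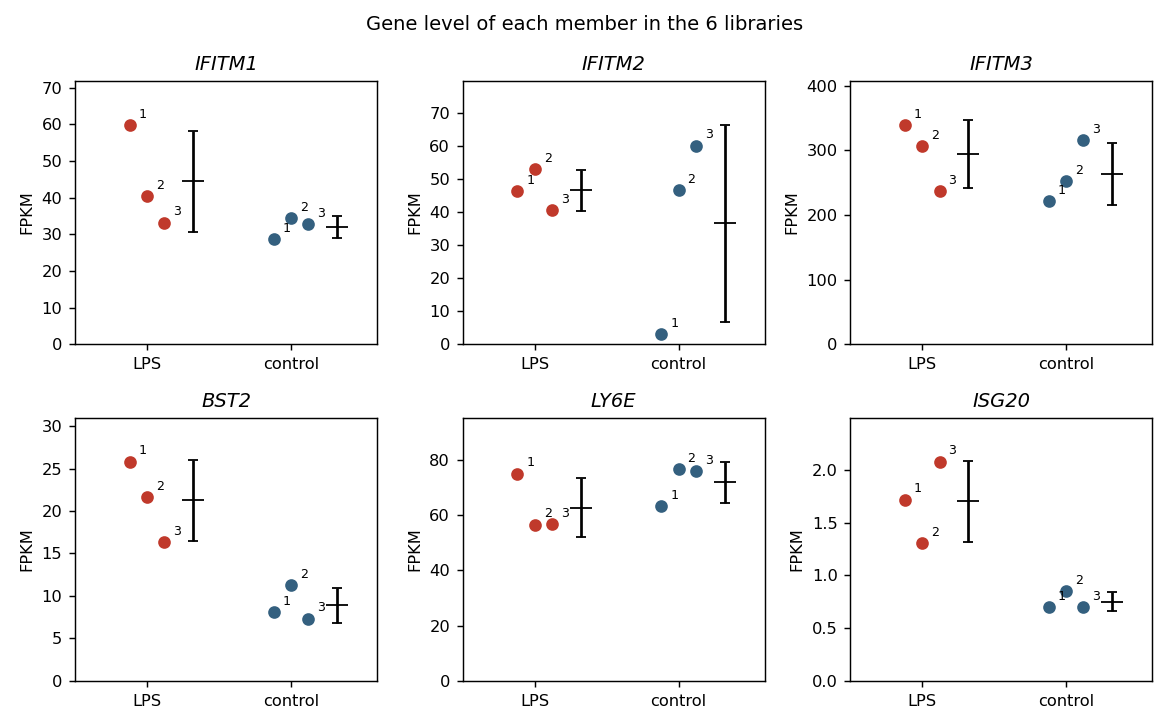
Gene level of each member in FPKM (y axis, from 0) in the 3 LPS and the 3 control libraries, with replicate numbers beside the points and the mean ± SD as a bar to the right. BST2 and ISG20 do not overlap between groups, and control 1 stands at 3.05 FPKM for IFITM2.

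IFITM3 was by far the most abundant member, at 339, 306 and 236 FPKM in the LPS libraries and at 221, 252 and 315 FPKM in the controls. Its mean of 294 ± 52.4 FPKM with LPS and 263 ± 47.9 FPKM in controls (SD, n = 3 each) placed it above 99.1% of tested genes. The third LPS library lay below control 2 and control 3, so the groups overlapped throughout. The log2 change was 0.16 (SE 0.17) with a limma adjusted p of 0.786. Leaving out single libraries moved it between 0.04 and 0.31, with the lowest value without control 1.

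IFITM1, the surface member of the family, stood at 59.9, 40.3 and 33.2 FPKM with LPS and at 28.8, 34.5 and 32.9 FPKM in controls. LPS 1 and LPS 2 were above every control, whereas LPS 3 lay between control 3 and control 2. Means were 44.5 ± 13.8 FPKM with LPS and 32.0 ± 2.95 FPKM in controls (SD, n = 3 each). The log2 change was 0.43 (SE 0.21, limma adjusted p = 0.521), and it was 0.19 without LPS 1.

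The IFITM1 gene level is a sum over 6 listed transcripts, and it joins a pair of large parts that differed in behaviour. The annotated coding transcript IFITM1-202 stood at 40.6, 23.6 and 19.6 FPKM with LPS and at 12.0, 15.9 and 14.1 FPKM in controls, with no overlap, as for 6.69% of tested transcripts. An assembled transcript that spans the whole cluster was listed at 16.0, 16.3 and 13.3 FPKM with LPS and at 16.1, 18.0 and 18.0 FPKM in controls. It thus made up 26.7% to 40.3% of the gene level in LPS libraries and 52.3% to 56.0% in controls. In the transcript table IFITM1-202 had a log2 change of 0.91 (SE 0.29, limma adjusted p = 0.712). Its mean was 2.0 times as high with LPS as in controls. An exact two-sided permutation test gave p = 0.1, the smallest value that 3 against 3 allows.

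With gene levels rebuilt from Ensembl transcripts only, an alternative chosen after seeing the data, IFITM1 stood at 41.5, 23.7 and 19.7 FPKM with LPS and 12.0, 16.0 and 14.4 FPKM in controls. The log2 change was then 0.91 (SE 0.27, limma adjusted p = 0.347), about double the deposited gene-level value. The other 5 members kept changes close to their deposited ones except IFITM2, at 1.42 against 1.12. No member was called with either sum.

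IFITM2 stood at 46.3, 53.1 and 40.6 FPKM with LPS and at 3.05, 46.7 and 60.2 FPKM in controls. Control 1 was far below all other libraries, and control 2 and control 3 were within or above the LPS range. Means were 46.7 ± 6.26 FPKM with LPS and 36.6 ± 29.9 FPKM in controls (SD, n = 3 each). The log2 change of 1.12 (SE 0.96, limma adjusted p = 0.729) rested on that single library, since without control 1 it was −0.19 (SE 0.17). By an exact two-sided permutation test over all 6 libraries p was 0.9.

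IFITM2 and TUBB2B, a beta-tubulin with a close paralog, were the 2 tested genes whose level there was less than 0.1 times the lowest of the other 5 libraries. By the same rule, which was chosen after values were seen, the other libraries had 3 to 7 such genes. TUBB2B was listed at 22.3, 18.7 and 16.8 FPKM with LPS and at 0.107, 12.5 and 15.3 FPKM in controls. IFITM1 and IFITM3 were both at their lowest in control 1 as well, at 28.8 and 221 FPKM.

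The split of IFITM2 between its transcripts varied from library to library within each group. IFITM2-205 was listed at 0.0203, 1.28 and 37.8 FPKM with LPS and at 0.0400, 0.204 and 51.7 FPKM in controls, so it led in the third library of each group only. IFITM2-206 was listed at 33.9, 19.2 and 0.900 FPKM with LPS and at 0.207, 29.2 and 4.79 FPKM in controls. IFITM2-202, at 32.5 FPKM, led in LPS 2. In all, 12 transcripts of the 6 members reached the level for testing and 0 were called by limma, against 0.126% of 20563 tested transcripts, with 2 of the 12 at an unadjusted p under 0.05, against 6.44% of tested transcripts.

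**Figure D3:**
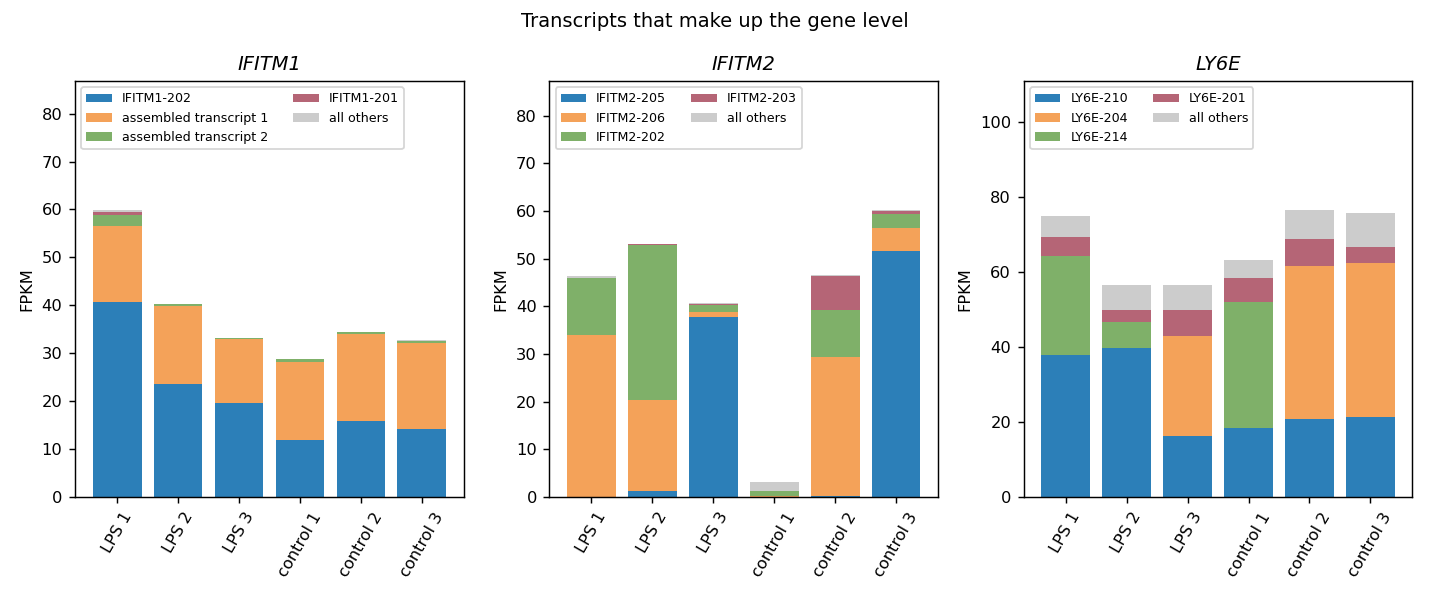
Transcript levels in FPKM, stacked to the gene level, for IFITM1, IFITM2 and LY6E in each library (LPS libraries left, controls right). IFITM1-202 is larger in LPS libraries while the assembled transcript is not, and the leading transcript of IFITM2 and LY6E changes between libraries of 1 group.

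IFITM3 came almost wholly from IFITM3-201, at 333, 300 and 233 FPKM with LPS and 214, 244 and 308 FPKM in controls. A shorter model annotated for nonsense-mediated decay, IFITM3-203, stood at 5.81, 5.92 and 3.13 FPKM with LPS and at 6.92, 7.63 and 6.61 FPKM in controls. These did not overlap, with LPS below control, and the exact two-sided permutation p was 0.1. Of tested transcripts 7.07% had every LPS library below every control. Transcript IFITM3-203 was singled out after values were seen and is not in the protein-coding table that limma was fitted to. Summed over the 3 genes, IFITM levels were 445, 399 and 310 FPKM with LPS and 253, 333 and 408 FPKM in controls. IFITM3 gave 76.2% to 76.6% of that sum in LPS libraries and 75.7% to 87.4% in controls, with control 1 at the top.

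BST2 stood at 25.8, 21.6 and 16.3 FPKM with LPS and at 8.13, 11.3 and 7.33 FPKM in controls. Every LPS library was above every control, and the LPS libraries also differed among themselves by 1.58 times. The mean was 21.2 ± 4.77 FPKM with LPS and 8.90 ± 2.07 FPKM in controls (SD, n = 3 each), a ratio of 2.39. Its log2 change of 1.21 (SE 0.21) lay above 99.7% of tested genes and had the 37th smallest p. The unadjusted p was 0.000527, and the limma adjusted p of 0.172 missed the threshold.

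With single libraries left out the BST2 change lay between 1.06, without LPS 1, and 1.38, without LPS 3. BST2-201, the 1 coding transcript listed, carried nearly all of it, at 25.2, 21.0 and 16.3 FPKM with LPS and 7.89, 11.2 and 7.31 FPKM in controls. LILRA4, a receptor of plasmacytoid dendritic cells that binds BST2, was listed at 0 in every library.

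LY6E was the 1 member with a negative log2 change. It stood at 74.9, 56.5 and 56.6 FPKM with LPS and at 63.2, 76.5 and 75.8 FPKM in controls. LPS 1 lay within the control range, whereas LPS 2 and LPS 3 lay below every control. The means were 62.7 ± 10.6 FPKM with LPS and 71.8 ± 7.47 FPKM in controls (SD, n = 3 each), with a log2 change of −0.20 (SE 0.14, limma adjusted p = 0.661). Without LPS 1 the change was −0.34.

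LY6E had 22 listed transcripts, of which 5 were tested, and the leading one again differed between libraries. LY6E-204 was listed at 0, 0.0130 and 26.6 FPKM with LPS and at 0, 40.8 and 41.2 FPKM in controls. LY6E-214 was listed at 26.6, 6.86 and 0 FPKM with LPS and at 33.8, 0 and 0 FPKM in controls. The libraries high in one were low or at 0 in the other. LY6E-210, the highest on average, stood at 37.8, 39.7 and 16.3 FPKM with LPS and at 18.3, 20.7 and 21.3 FPKM in controls. The divergent gene LY6E-DT was at 5.78, 6.04 and 4.34 FPKM with LPS and at 4.25, 8.30 and 5.61 FPKM in controls.

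ISG20 was the least abundant member, above only 9.85% of tested genes. It stood at 1.72, 1.31 and 2.08 FPKM with LPS and at 0.697, 0.853 and 0.703 FPKM in controls, with every LPS library above every control. Its means were 1.70 ± 0.386 FPKM with LPS and 0.751 ± 0.0883 FPKM in controls (SD, n = 3 each), a ratio of 2.27. The log2 change of 0.80 (SE 0.18) had an unadjusted p of 0.00228 and a limma adjusted p of 0.231. It was 1.07 with a pseudocount of 0.1 FPKM and 0.62 with 1 FPKM.

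The leading transcript of ISG20 changed between libraries in both groups. ISG20-201 was listed at 1.37, 0.903 and 0.376 FPKM with LPS and at 0.557, 0.362 and 0.348 FPKM in controls, so LPS 3 lay within the control range. In LPS 3 the transcript ISG20-208 stood at 1.39 FPKM, and it was listed at 0 in the other 5 libraries. ISG20-210 was listed at 0.186, 0.123 and 0.224 FPKM with LPS and at 0, 0.373 and 0.267 FPKM in controls. It was thus slightly above ISG20-201 in control 2.

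**Figure D4:**
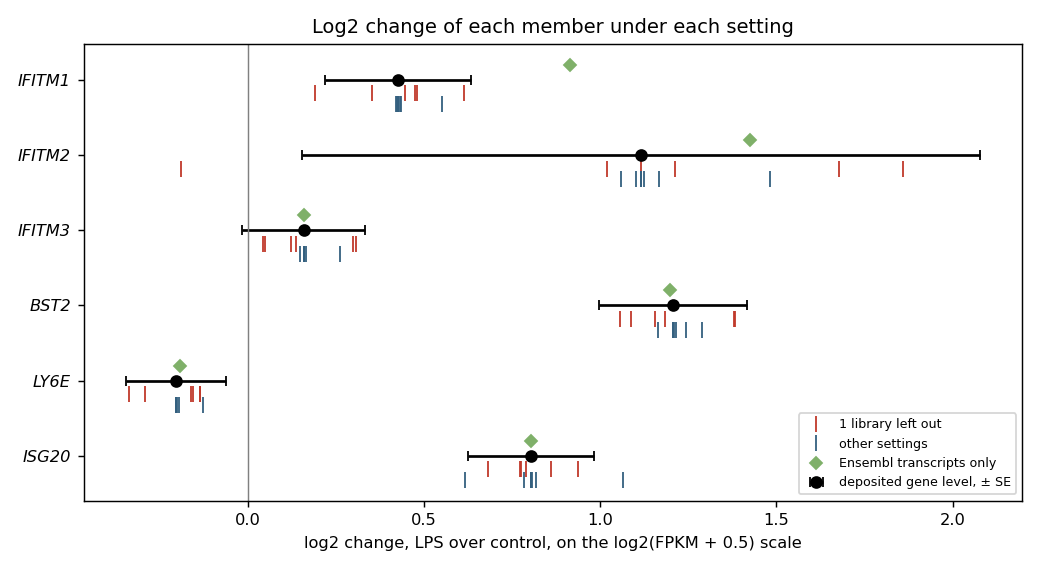
Log2 change of each member, LPS over control, on the log2(FPKM + 0.5) scale (x axis). Black points are deposited gene levels with their SE, red ticks leave out 1 library each, blue ticks are other settings and green diamonds use Ensembl transcripts only; IFITM2 turns negative in 1 fit, without control 1.

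In order of level, IFITM3 was followed by LY6E, then by IFITM2 and IFITM1, then by BST2 and ISG20, in both groups. IFITM1 and IFITM2 did not differ beyond their spread in either group, since the range of IFITM1 overlapped that of IFITM2. LY6E and IFITM1 also overlapped with LPS. The steps to IFITM3, BST2 and ISG20 exceeded the ranges of the libraries in each group, apart from the IFITM2 level of control 1, which was below every BST2 level. With Ensembl transcripts only, the step between IFITM1 and BST2 was within the ranges in LPS libraries, where IFITM1 went down to 19.7 FPKM and BST2 up to 25.5 FPKM.

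Of the members 4 were highest in LPS 1 among the LPS libraries, and so were 26 of 31 other tested interferon-stimulated genes, against 29.2% of all tested genes. ISG20 was highest in LPS 3 and IFITM2 in LPS 2. The other interferon-stimulated genes had a median log2 change of 0.41, which was 0.19 without LPS 1. Of these 31 genes 27 were positive and 12 had every LPS library above every control. The shares over all tested genes were 47.8% and 8.68%. ISG15, a ubiquitin-like modifier, was the 1 of the 31 called. It rose to 65.6, 48.9 and 48.5 FPKM in LPS libraries, against 19.01, 15.3 and 17.1 FPKM in controls (log2 change 1.63, SE 0.15, limma adjusted p = 0.0344).

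Restriction factors that act on nucleic acid or capsids had 1 of 19 tested genes called. This was MX1, a GTPase that traps viral nucleocapsids, which rose to 22.4, 8.68 and 9.56 FPKM in LPS libraries, against 0.815, 1.12 and 0.608 FPKM in controls (log2 change 3.27, SE 0.35, limma adjusted p = 0.0344). On that list 12 of 19 changes were positive, against 47.8% of all tested genes. The list median was 0.17, and it was 0.08 without LPS 1 and 0.02 without control 1. MX1 and ISG15 were the 2 called genes over all lists. Over the lists the count was 2 without LPS 1 and 0 without LPS 2, LPS 3, control 1, control 2 or control 3.

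Membrane-acting antiviral genes and host factors other than the members gave 0 calls by limma among 10 tested. Of these 4 were positive and 1 had an unadjusted p under 0.05, against 47.8% and 10.4% of all tested genes. The median log2 change of the list was −0.07. It was −0.11 without LPS 3 and −0.03 without LPS 2 or control 2. The caveolar coat gene CAV1 had the smallest p, at 119, 117 and 119 FPKM with LPS and 141, 148 and 270 FPKM in controls (limma adjusted p = 0.447). NCOA7 and VMP1 followed, with log2 changes of −0.30 and −0.21. RSAD2, which encodes viperin, was too low to be tested, at 0.382, 0.355 and 0.292 FPKM with LPS and 0.0456, 0.0832 and 0.00781 FPKM in controls. It was singled out after values were seen.

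**Figure D5:**
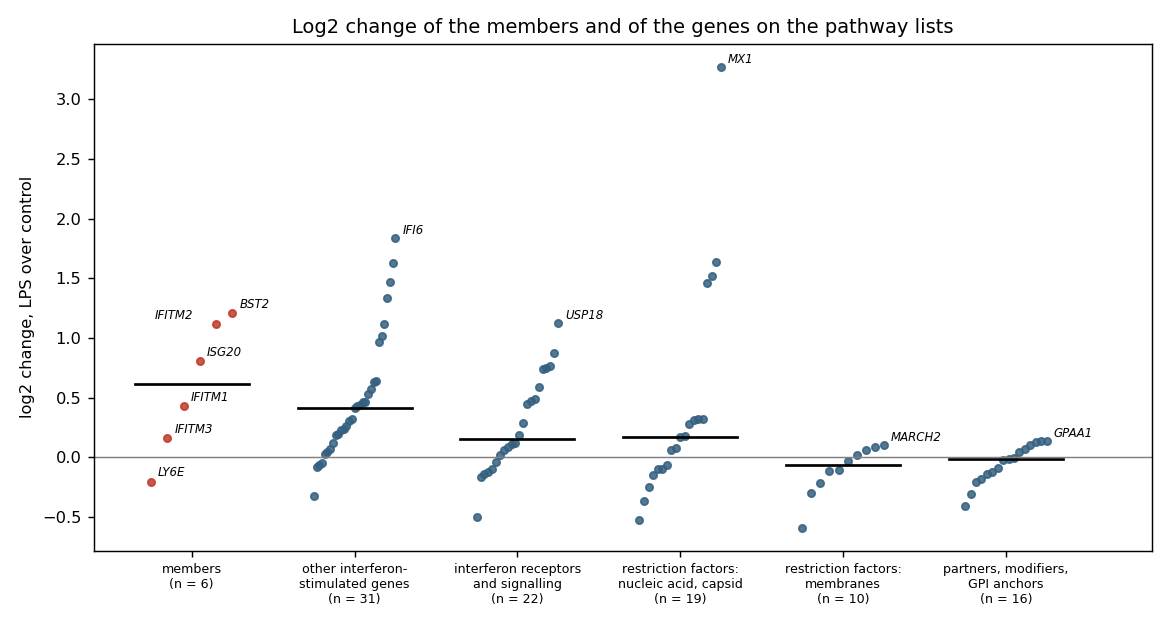
Log2 change, LPS over control, of the 6 members (red) and of tested genes on 5 lists (blue), sorted within each list, with the list median as a black line and the highest gene named. MX1, at 3.27, is the highest point, and the medians of the membrane-acting and partner lists lie at −0.07 and −0.02.

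Genes for interferons themselves were at or near 0. None of 22 interferon genes reached the level for testing, and 18 were listed at 0 in all 6 libraries. IFNB1, which encodes interferon-beta, was listed at 0.0633 FPKM in LPS 1 and at 0 in the other 5 libraries. IFNE was listed at 0.141, 0.400 and 0.451 FPKM with LPS and at 0.137, 0.233 and 0.705 FPKM in controls, and IFNA5 and IFNL4 were above 0 in LPS 2 only.

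Interferon receptors and signalling genes gave 0 calls by limma among 22 tested. The median log2 change was 0.16, with 16 positive and 7 higher genes at an unadjusted p under 0.05. The shares over all tested genes were 47.8% positive and 5.13% higher at that p. USP18, which removes ISG15 from proteins and dampens receptor signalling, stood at 3.11, 1.68 and 2.20 FPKM with LPS and at 0.796, 0.741 and 0.763 FPKM in controls. IRF7, a transcription factor of the interferon response, was at 7.19, 5.31 and 6.41 FPKM with LPS and at 2.84, 3.81 and 2.96 FPKM in controls. TICAM1, the TRIF adaptor of TLR4, was at 9.14, 8.99 and 8.31 FPKM with LPS and 7.08, 5.68 and 6.24 FPKM in controls. None of these 3 overlapped between groups, and their limma adjusted p-values were 0.173, 0.173 and 0.305. They were named for the smallest p among the 22, a choice that favours genes without overlap. For comparison, 8.68% of all tested genes had every LPS library above every control. IFNLR1, the interferon-lambda receptor chain, was listed at 0 throughout.

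Partners and modifiers of IFITM3 and BST2, with enzymes of the GPI anchor, also gave 0 calls by limma among 16 tested. Of these 6 were positive and 2 had an unadjusted p under 0.05, against 47.8% and 10.4% of all tested genes. The median log2 change of the list was −0.02. Leaving out single libraries moved it between −0.05, without LPS 3, and 0.04, without LPS 2. It was also positive, at 0.02, without control 3. PIGK, the catalytic subunit that attaches GPI anchors, stood at 7.15, 6.72 and 7.65 FPKM with LPS and at 9.28, 9.29 and 10.5 FPKM in controls. VAPA, a membrane contact protein that binds IFITM3, was at 18.9, 17.6 and 19.7 FPKM with LPS and at 21.4, 22.4 and 26.1 FPKM in controls. Neither overlapped between groups, and limma gave adjusted p-values of 0.318 and 0.417. Both were named for the smallest p on the list, a choice that favours genes without overlap. For comparison, 8.73% of all tested genes had every LPS library below every control.

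Relatives of the members showed no calls. Of 10 other dispanins, the protein family to which IFITM belongs, TMEM91 alone was tested, at 11.2, 16.3 and 13.8 FPKM with LPS and 13.2, 10.95 and 12.4 FPKM in controls. IFITM5 and IFITM10 were no higher than 0.564 FPKM in any library. Among LY6 and uPAR genes, which share the fold of LY6E, 0 of 5 tested were called by limma. Of these 5, 3 had an unadjusted p under 0.05, against 10.4% of all tested genes, and they are named here for that p. The urokinase receptor PLAUR stood at 43.5, 41.5 and 52.9 FPKM with LPS and at 38.8, 32.5 and 38.1 FPKM in controls, and LYPD1 was also higher and LYNX1 lower without overlap (log2 changes 0.33, 0.71 and −0.56). Of 9 tested relatives of the ISG20 exonuclease, by limma 0 were called and 0 had an unadjusted p under 0.05.

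Within 100 kb of the member starts, 5 protein-coding genes were tested around the IFITM cluster, 6 around BST2 and 3 around ISG20, and limma called 0 of them. An unadjusted p under 0.05 was found for 2 of those around the IFITM cluster, 1 around BST2 and 0 around ISG20, against 10.4% of all tested genes. All LPS libraries were above all controls for 1 neighbour of the IFITM genes and 1 of BST2, and below for 2 and 1. Of all tested genes 8.68% had every LPS library above every control and 8.73% had every LPS library below.

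Gene profiles most like each member were found by the root mean square difference between centred log2 profiles over the 6 libraries, among 11191 other genes with a mean of at least 1 FPKM. For IFITM1 the nearest were DHX58, an RNA helicase of the RIG-I family, and PARP9 (differences of 0.0775 and 0.0790 log2 units). For BST2 they were IFI27, an interferon-stimulated mitochondrial protein gene, and CTSS, a lysosomal protease gene (both 0.175). IFI27 stood at 47.2, 30.3 and 31.5 FPKM with LPS and at 15.0, 18.4 and 15.3 FPKM in controls. ISG20 was nearest to JAG1 and SERPINB6 (0.0791 and 0.0921), IFITM3 to PPARA and MTX1 (0.0346 and 0.0627), and LY6E to IFI30 and STN1 (0.0405 and 0.0416). IFITM2 had no close match. Its nearest genes, TUBB2B and PMF1, differed by 0.497 and 0.556 log2 units and were also lowest in control 1. PMF1 was listed at 2.97, 16.8 and 16.9 FPKM in controls. PMF1-BGLAP, a gene listed apart from PMF1, was highest in control 1, at 21.2, 2.54 and 5.66 FPKM in controls. With LPS it was listed at 2.57, 2.71 and 1.11 FPKM. How reads were divided between PMF1 and PMF1-BGLAP was not tested. These likenesses are descriptions over 6 libraries, with no test.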

How the data were processed

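The authors deposited gene and transcript tables in FPKM, per the file headers and table names. Per the submitters' processing notes, the tools were HISAT2 and StringTie, with no version. The build listed there is mm9, of mouse, but the tables hold human identifiers with GRCh38 coordinates. No source used here gives read counts, strand or settings of quantification. Deposited gene values equalled the sum of the gene's transcripts, assembled ones included, within 0.1%.

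Groups were taken from sample titles. The tests of genes and transcripts averaging 0.5 FPKM or more used limma 3.58.1 (R 4.3.3) after taking log2(FPKM + 0.5) (group only, eBayes with trend, two-sided, Benjamini-Hochberg over the whole table). The procedure was also run on simulated data with normal noise of the spread that limma itself estimated. Such data meet the model by design, so that run cannot show how well the procedure suits these libraries. Exact permutation tests used SciPy 1.17.1, and coordinates and transcripts came from GENCODE 29. Where a symbol had several identifiers, the most abundant was used on the lists. From each list the text may name genes past the threshold, or the 3 with the smallest p where none passed, and for each member the 2 genes with the most similar profile. Members and lists were chosen with earlier results of these data known. Alternatives were other pseudocounts, filters and scalings, library weights, a replicate block and leaving out each library. The table of noncoding transcripts was not used.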

Additional observations from a re-analysis of the deposited data

How the results depend on the processing

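No member was called under any alternative run, and BST2, ISG20, IFITM1, IFITM3 and LY6E kept the sign of their log2 change. IFITM2 turned negative without control 1, and over single libraries left out its change ranged from −0.19 to 1.86. By limma the 7 genes called became 0 without a filter on low values (1563 at an unadjusted p under 0.05) and 0 with a replicate block (1451). Leaving out single libraries gave 0 to 8 genes, with 0 without LPS 2 (1213 at an unadjusted p under 0.05) and 0 without control 2 (1046), 2 without LPS 3 and 4 without control 1. The cause was not tested. The 2 called list genes became 0 with the block (45 at an unadjusted p under 0.05) and ranged from 0 to 2 over single libraries left out. The 26 called transcripts became 0 with the block (1171 at an unadjusted p under 0.05) and ranged from 28 to 53 over single libraries left out. Same-numbered libraries of the groups correlated at 0.0111, 0.102 and 0.0518 in their deviations from the group means. Libraries of unlike number correlated at −0.0752 to 0.023. Each LPS library correlated best with the control of its own number. Control 1 alone correlated better with another number, LPS 3 (0.023). Whether the numbers pair the samples is not recorded and was not settled, and the main fit did not pair them. The adjusted p of BST2 lay between 0.114 and 0.419 over all alternatives and that of ISG20 between 0.206 and 0.557. FPKM carries no depth, which limits what can be said of genes as low as ISG20, RSAD2 or IFNB1.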
